A study of Mus musculus with 21 samples.

Results

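The skin of allogeneically transplanted mice treated with an antibody to IL1RAP was compared with the skin of syngeneically transplanted mice, to ask which genes stayed changed under IL1RAP blockade and which were back at the syngeneic level. The members were 8 of the series' 21 RNA-seq libraries, taken by treatment label, and they comprised 4 allogeneic anti-IL1RAP libraries and 4 syngeneic isotype libraries. All recipients were BALB/c mice (H-2d) of 8 weeks given 700 cGy of total body irradiation and then bone marrow, from BALB/c donors in the syngeneic group and from B10.D2 donors (also H-2d) in the allogeneic groups. The anti-IL1RAP group received mCAN10, an anti-mouse IL1RAP antibody, and both other groups used here received the isotype antibody mIgG2a LALA-PG, whose altered Fc part carries the LALA-PG change. Injections were intraperitoneal, began on day 21 and ran for 4 weeks at 20 mg/kg for the first dose and 10 mg/kg afterwards, and 3 mm pieces of skin were taken in week 7. A further 4 libraries of allogeneic skin under the isotype antibody, from the same counting run, served to define the disease genes. The donor strain separates the same groups as the disease does, so a gene that differs between B10.D2 and BALB/c cells and a gene that differs with disease cannot be told apart. Whether the numbered libraries of a group are different animals is not stated in the labels, so p-values measure the spread between these libraries, which may be technical.

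In chronic graft-versus-host disease, donor T cells recognise antigens of the recipient that differ from their own, and skin inflammation followed by thickening is a main feature of this B10.D2 into BALB/c model. IL1RAP is the co-receptor that the receptors for IL-1, IL-33 and IL-36 share, and an antibody against it is meant to block these cytokines together. Interferons signal through other receptors: type I interferon acts through a complex that holds STAT2 and IRF9 and binds the interferon-stimulated response element, and interferon-gamma also acts at a second sequence, the gamma-activated site. T cells and natural killer cells make interferon-gamma, which raises antigen presentation and the chemokines CXCL9, CXCL10 and CXCL11, and these in turn attract T cells that carry CXCR3.

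The promoters of 5 genes that stayed above the syngeneic level are printed, chosen in part because the letters of the response element are visible in 4 of them. The matches in these 4 were thus fixed by the choice, and shares over all genes are given below. The interferon-stimulated list had the most members that stayed changed, 22 of its 29 disease genes, against 17 of 19 for MHC class I. Gbp2 and Irgm1 belong to the interferon-gamma axis list and B2m to the MHC class I list. Each runs 5′ to 3′ on the gene's strand from 250 bases before to 50 bases after the annotated start, from the RefSeq promoter table of the GRCm38.p6 build, and capitals mark a match to the letters of the response element (GAAA, then any 2 bases, then GAAA again) or to its reverse complement. They are Isg15 at chr4:156200769-156201068 on the minus strand, Gbp2 at chr3:142620413-142620712 on the plus strand, Irgm1 at chr11:48871371-48871670 on the minus strand, B2m at chr2:122147437-122147736 on the plus strand and Cxcl9 at chr5:92328030-92328329 on the minus strand.
Isg15: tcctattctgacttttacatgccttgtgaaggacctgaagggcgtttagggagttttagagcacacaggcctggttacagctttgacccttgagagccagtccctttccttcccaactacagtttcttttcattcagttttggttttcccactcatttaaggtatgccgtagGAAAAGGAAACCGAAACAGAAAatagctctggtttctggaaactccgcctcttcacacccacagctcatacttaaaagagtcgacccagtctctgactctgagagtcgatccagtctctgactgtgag
Gbp2: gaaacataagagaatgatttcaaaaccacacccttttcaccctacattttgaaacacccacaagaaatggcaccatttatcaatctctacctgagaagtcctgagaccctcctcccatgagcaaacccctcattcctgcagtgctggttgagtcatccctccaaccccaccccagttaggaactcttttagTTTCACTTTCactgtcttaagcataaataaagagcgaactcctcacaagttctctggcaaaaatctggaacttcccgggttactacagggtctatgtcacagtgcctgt
Irgm1: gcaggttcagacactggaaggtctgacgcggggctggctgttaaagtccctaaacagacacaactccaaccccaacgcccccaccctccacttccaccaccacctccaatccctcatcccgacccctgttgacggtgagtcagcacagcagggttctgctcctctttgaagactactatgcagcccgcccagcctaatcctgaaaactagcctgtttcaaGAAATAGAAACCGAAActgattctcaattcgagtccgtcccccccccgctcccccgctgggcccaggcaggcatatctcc
B2m: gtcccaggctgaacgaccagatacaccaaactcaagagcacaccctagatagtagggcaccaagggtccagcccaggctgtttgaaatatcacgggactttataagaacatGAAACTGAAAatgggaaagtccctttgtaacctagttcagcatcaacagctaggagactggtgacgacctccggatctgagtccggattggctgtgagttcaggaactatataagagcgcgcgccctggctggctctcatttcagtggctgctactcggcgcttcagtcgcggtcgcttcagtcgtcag
Cxcl9: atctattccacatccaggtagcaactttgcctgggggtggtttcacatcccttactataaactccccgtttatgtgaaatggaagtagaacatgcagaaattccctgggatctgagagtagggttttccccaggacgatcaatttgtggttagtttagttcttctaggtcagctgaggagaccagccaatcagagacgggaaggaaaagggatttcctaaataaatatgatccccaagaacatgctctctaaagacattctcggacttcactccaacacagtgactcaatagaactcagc
Isg15 encodes a ubiquitin-like modifier, and its promoter held 3 overlapping matches whose first bases lay 78, 72 and 66 bases before the start. Gbp2, a guanylate-binding GTPase, held 1 match 59 bases before the start, and Irgm1, an immunity-related GTPase, held 2 overlapping matches at 30 and 24 bases. B2m, the light chain of MHC class I, held 1 match 139 bases before the start. The window of Cxcl9 held no match to these letters.

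The 8 libraries held between 20480765 and 32899212 counted reads. Keratinocyte, fibroblast, sebaceous, endothelial, fat and muscle markers (Krt5, Krt14, Krt10, Pdgfra, Col1a1, Krt79, Scd3, Pecam1, Adipoq, Acta1 and Myh4) were present in all 8. Skeletal muscle genes took 6.28% ± 1.16 (SD, n = 4) of the counts in syngeneic skin and 2.20% ± 1.42 (SD, n = 4) under anti-IL1RAP, with no overlap between the libraries (two-sided exact permutation p = 0.0286, the smallest that 4 against 4 allows). Mitochondrially encoded genes took 4.24% ± 0.595 and 2.33% ± 0.535 (SD, n = 4 each, exact permutation p = 0.0286). Y-linked genes stood at 2.68 to 6.58 CPM (counts divided by the library's total in units of 1e6) in the 4 syngeneic libraries, at 16.2 CPM in anti-IL1RAP replicate 2, and at 0 in the other 3 anti-IL1RAP libraries and all allogeneic isotype libraries, while Xist was present in all. Apart from that library, the Y-linked counts part the groups as the donors do. The labels used here do not give the sex of the donors, so the donor and the identity of anti-IL1RAP replicate 2 were not tested. The counts of called genes over the lists below are also given without this library where they move by over 1.5 times. In whole skin, fewer cells of a type and less RNA per cell cannot be told apart.

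Of 19438 genes tested, 505 (2.6%) differed between anti-IL1RAP and syngeneic skin at an adjusted p under 0.05 (edgeR quasi-likelihood test, Benjamini-Hochberg adjustment). Of these, 422 genes (2.17%) were higher and 83 genes (0.427%) were lower under anti-IL1RAP. The median log2 fold change was 1.57 for the higher genes, -0.74 for the lower genes and 0 for all genes tested, and 323 higher and 24 lower genes differed by at least 2-fold. The same fit called 6538 genes (33.6%) between allogeneic isotype and syngeneic skin, here the disease genes, and 3664 genes (18.8%) between anti-IL1RAP and allogeneic isotype skin. These comparisons share libraries, and the classes below are therefore a description. At an unadjusted p under 0.05, 2226 genes (11.5%) were higher and 1721 (8.85%) were lower, the background for the unadjusted counts given below. A count of 0 called genes in a short list below is near the 2.6% of all genes and is no result about that list. In 3811 genes (19.6%) the 4 anti-IL1RAP and 4 syngeneic values did not overlap, 1815 higher and 1996 lower.

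The number of calls moved with the test and with the libraries in the fit. The fit pools the spread over 12 libraries, and the allogeneic isotype libraries varied most (lowest pairwise correlation of log2 CPM 0.887, against 0.972 in syngeneic and 0.973 in anti-IL1RAP skin). Fitted on the 8 libraries alone, edgeR called 2132 genes, 1058 higher and 1074 lower, including 482 of the 505, and DESeq2 on the 12 libraries called 1677, including 504 of them. Without allogeneic isotype replicate 3 the count was 1311. It was 221 without syngeneic replicate 3, 164 without syngeneic replicate 4, 188 without anti-IL1RAP replicate 1, 208 (199 higher and 9 lower) without anti-IL1RAP replicate 2 and 283 without anti-IL1RAP replicate 4. With all 21 libraries in the fit it was 145.

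**Figure D1:**
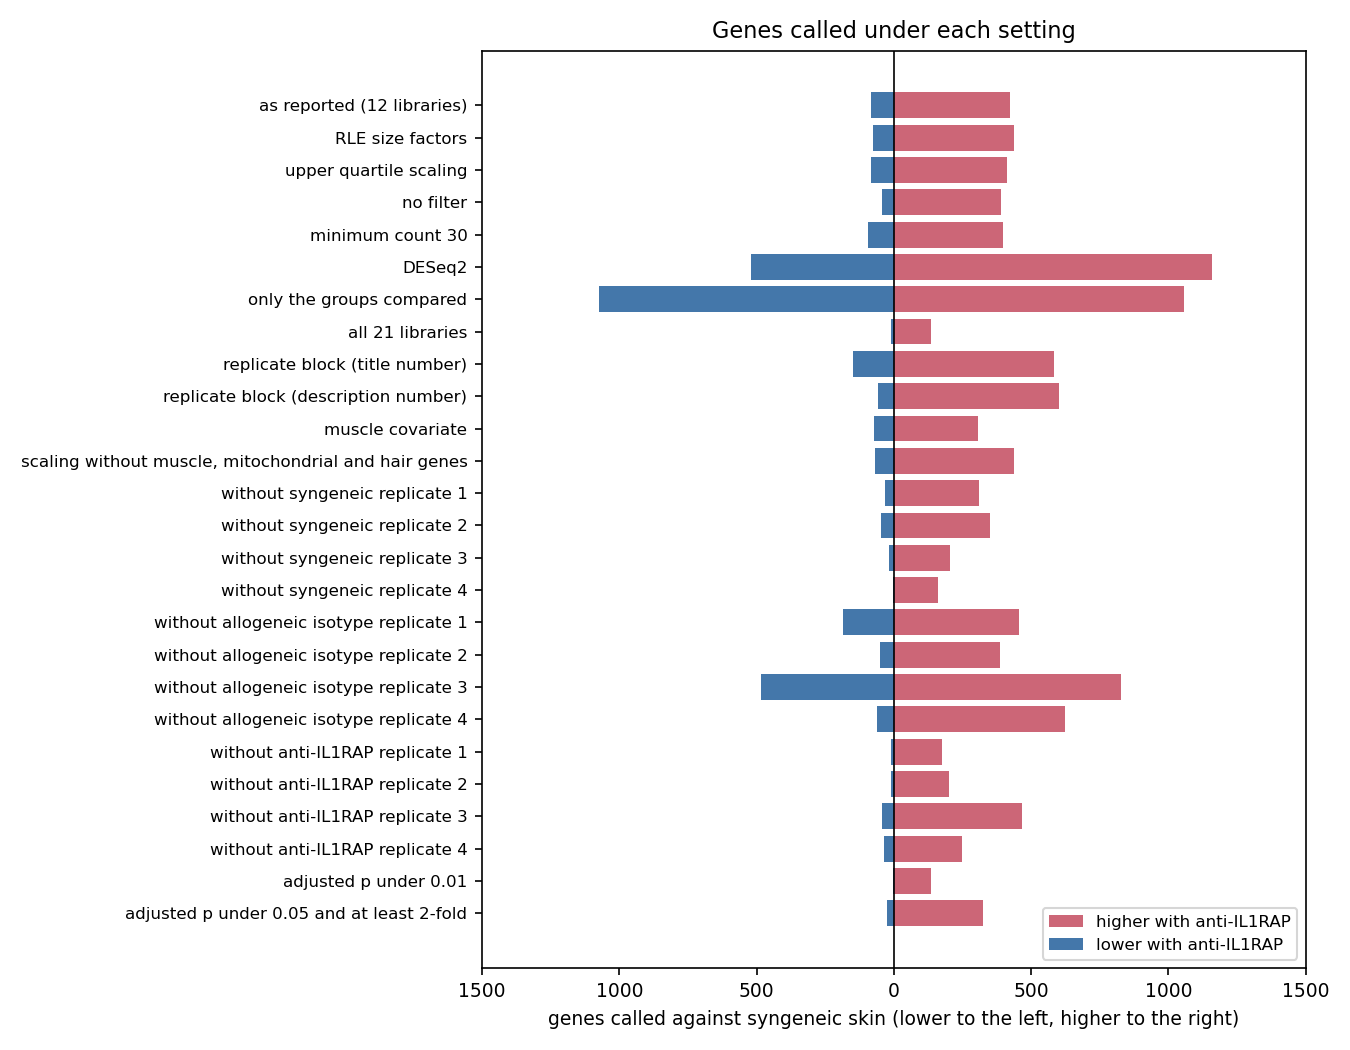
Number of genes called against syngeneic skin under each setting, with genes lower under anti-IL1RAP drawn to the left of 0 and genes higher drawn to the right. As reported, 422 genes were higher and 83 lower, and the fit on the 8 libraries alone called 1058 and 1074.

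Of the 6538 disease genes, 473 (7.23%) stayed changed, meaning that they were also called between anti-IL1RAP and syngeneic skin in the same direction, 403 higher and 70 lower. For 4043 (61.8%) the level was back within 2-fold, meaning that the gene was not called and that the 95% confidence interval of the difference lay inside 1 log2 unit on either side of 0. This rule does not require that the gene moved under anti-IL1RAP. Of the 4043, 2288 were also called against allogeneic isotype skin in the direction of the syngeneic level. A further 2021 were undecided, meaning that they were not called and that the interval reached beyond 1 log2 unit, and Gpm6a, a neuronal membrane glycoprotein gene named here after its values were seen, was called in the opposite direction. Among the 3046 disease genes of at least 2-fold, 394 (12.9%) stayed changed, 882 (29%) were back within 2-fold and 1770 were undecided. Of the 403 genes that stayed higher, 116 were at the same time called lower than in allogeneic isotype skin, and 286 were not called in that comparison. The count that stayed changed was 1166 without allogeneic isotype replicate 3, 216 and 164 without syngeneic replicates 3 and 4, and 185, 206 and 272 without anti-IL1RAP replicates 1, 2 and 4.

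**Figure D2:**
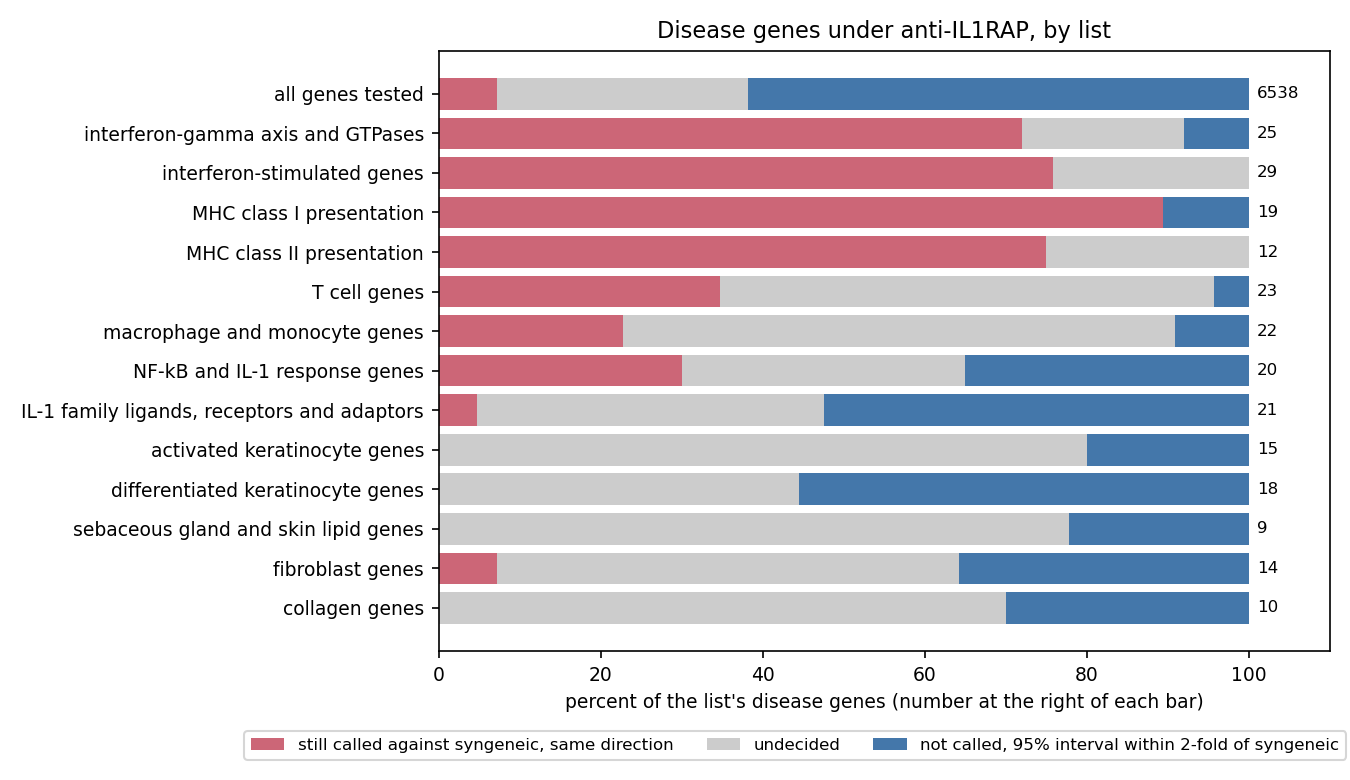
Share of the disease genes of each list that stayed changed, were undecided or were back within 2-fold of the syngeneic level under anti-IL1RAP, with the number of disease genes at the right of each bar. Of all disease genes 7.23% stayed changed and 61.8% were back, and 17 of 19 MHC class I disease genes stayed changed. Of 15 activated keratinocyte disease genes none stayed changed, 12 were undecided and 3 (20%) were back.

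Interferon-stimulated genes stayed above the syngeneic level under anti-IL1RAP. Of 33 such genes, all of which were tested, 22 were higher than in syngeneic skin and none was lower, against 2.17% of all genes called higher. All 22 were among the 29 called in the disease comparison, and the other 7 were undecided (12 without anti-IL1RAP replicate 2). The median log2 fold change over the list was 1.41 under anti-IL1RAP and 2.24 in allogeneic isotype skin, and 18 members were called lower under anti-IL1RAP than under isotype. The list's mean level, set against the syngeneic mean, lay between 0.97 and 1.92 log2 units in the anti-IL1RAP libraries and between 1.91 and 2.56 in the isotype libraries. The count of higher members was 13, 12 and 12 without syngeneic replicates 2, 3 and 4, 12 without anti-IL1RAP replicate 1, 17 without anti-IL1RAP replicate 2 and 10 with all 21 libraries.

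Isg15, whose promoter is printed above, stood at 18, 6.31, 14.7 and 8.28 CPM in syngeneic, at 73.3, 42.7, 46.8 and 53.5 under anti-IL1RAP and at 186, 171, 210 and 186 in isotype skin. The lowest anti-IL1RAP library was above the highest syngeneic one and the highest was below every isotype one. Its log2 fold change was 2.19 ± 0.29 against syngeneic (SE, edgeR adjusted p = 0.00277) and -1.80 ± 0.28 against isotype skin (SE, edgeR adjusted p = 0.00191).

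Stat2 and Irf9, which act together in type I interferon signalling, were both above the syngeneic level. Stat2 stood at 51.7, 40.2, 38.8 and 38.3 CPM in syngeneic, at 151, 101, 100 and 135 under anti-IL1RAP and at 237, 234, 223 and 199 in isotype skin, with no overlap between the groups. It was higher than in syngeneic skin by a log2 fold change of 1.53 ± 0.15 (SE, edgeR adjusted p = 0.000588) and lower than in isotype skin by -0.87 ± 0.15 (SE, adjusted p = 0.00275). Irf9 was higher than in syngeneic skin by 1.09 ± 0.12 (SE, edgeR adjusted p = 0.000893), and its difference from isotype skin, -0.32 ± 0.12 on the log2 scale, did not pass the threshold (adjusted p = 0.08). Oas1a, a sensor of double-stranded RNA, was higher than in syngeneic skin by 2.25 ± 0.24 (SE, edgeR adjusted p = 0.000839). These 3 genes and Isg15 kept their calls under every alternative run.

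Genes of the interferon-gamma axis stayed above the syngeneic level as well. Of its 26 genes, 18 were higher than in syngeneic skin and none was lower, with a median log2 fold change of 2.30 under anti-IL1RAP and 3.44 in isotype skin, and 13 were called lower than in isotype skin. All 18 stayed changed, 2 were back within 2-fold (Ifngr1, a receptor chain, and Jak2, its kinase) and 5 were undecided. Ifng itself was among the undecided, at a log2 fold change of 3.10. The count of 18 was 12 with all 21 libraries in the fit and between 15 and 19 without each library in turn. Without anti-IL1RAP replicate 2 it was 17, and 6 genes in place of 13 were called lower than in isotype skin.

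The T cell chemokine Cxcl9 stood at 6.95, 6.1, 2.79 and 1.89 CPM in syngeneic skin, at 211, 80.9, 33.9 and 81.5 under anti-IL1RAP and at 460, 464, 333 and 364 in isotype skin. The groups did not overlap, and anti-IL1RAP replicate 1 was the highest and replicate 3 the lowest of its group. The log2 fold change was 4.52 ± 0.51 against syngeneic (SE, edgeR adjusted p = 0.00209) and -1.99 ± 0.50 against isotype skin (SE, adjusted p = 0.0198). Cxcl11, which binds the same receptor, stood at 0.628, 0.89, 0.976 and 0.619 CPM in syngeneic, at 7.6, 5.23, 3.94 and 7.52 under anti-IL1RAP and at 74.2, 60.4, 38.8 and 51.3 in isotype skin. Its 3 groups did not overlap either, with log2 fold changes of 2.97 ± 0.28 against syngeneic (SE, edgeR adjusted p = 0.000488) and -3.21 ± 0.24 against isotype skin (SE, adjusted p = 6.21e-05). In the GENCODE annotation of mouse release M21, 41.7% of Cxcl11's exon bases are shared with Gm2673, and its call was lost with all 21 libraries in the fit.

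Gbp2 stood at 35.5, 28, 26.1 and 23.6 CPM in syngeneic, at 243, 148, 114 and 186 under anti-IL1RAP and at 270, 328, 448 and 237 in isotype skin. Every anti-IL1RAP library was above every syngeneic one, while anti-IL1RAP replicate 1 reached into the isotype range. The log2 fold change was 2.61 ± 0.25 against syngeneic skin (SE, edgeR adjusted p = 0.000588). All 7 Gbp genes and 5 immunity-related GTPase genes of the list (Irgm1, Irgm2, Igtp, Iigp1 and Tgtp1) were higher, with log2 fold changes from 2.00 for Gbp9 to 3.61 for Tgtp1. These families have close copies, and reads shared between copies may be counted unevenly.

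**Figure D3:**
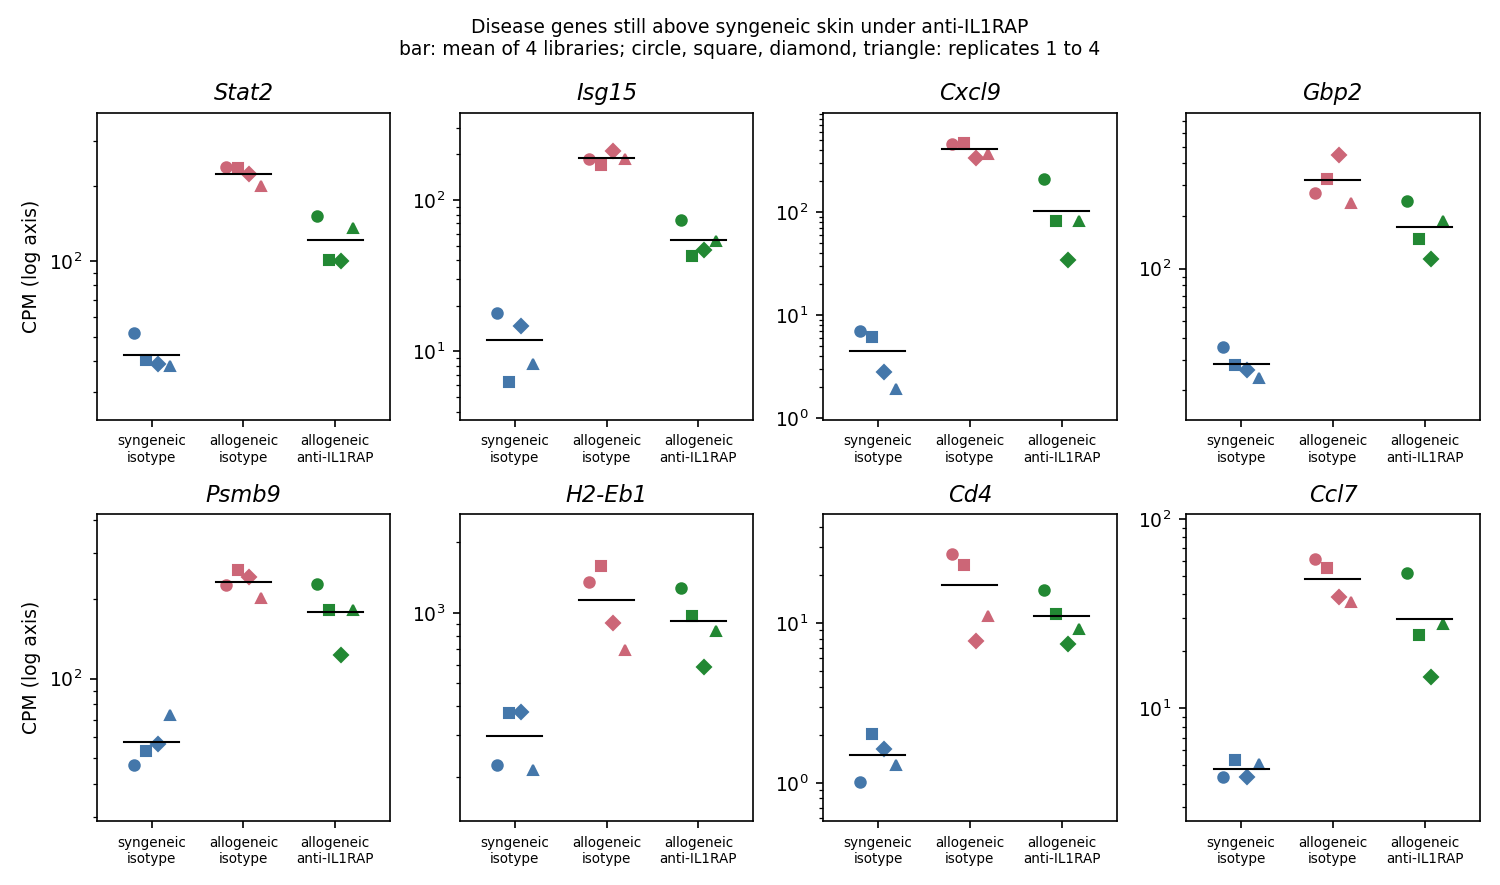
CPM of 8 genes that stayed above the syngeneic level, on a log axis, with 1 point per library in the syngeneic, allogeneic isotype and anti-IL1RAP groups and a line at each group mean. For Stat2, Isg15 and Cxcl9 the anti-IL1RAP libraries lie between the other groups, and for Psmb9, H2-Eb1 and Cd4 they reach into the isotype range.

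Matches to the response element were counted in each class. A match to its letters on either strand (overlapping matches allowed, a gene counted once) was present in 66 of 287 genes (23%) that were higher under anti-IL1RAP and have a promoter in the table, in 56 of 1551 disease-higher genes (3.61%) that were back within 2-fold, and in 513 of 13135 tested genes (3.91%). Of the genes lower under anti-IL1RAP, 0 of 63 held it. Among the lists it was present in 13 of 23 interferon-stimulated genes, 10 of 18 interferon-gamma axis genes and 5 of 17 MHC class I genes, and in 0 of 11 activated keratinocyte genes. TTCNNNGAA, the letters of the gamma-activated site, was present in 45 of 287 genes (15.7%) higher under anti-IL1RAP, in 124 of 1551 (7.99%) that were back and in 1107 of 13135 (8.43%) tested, and in 8 of 18 genes of the interferon-gamma axis. Among all 27025 genes of the promoter table, 3.99% held the first and 9.55% the second. A match describes the letters of the window and not a bound site.

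Antigen presentation by MHC class I stayed raised. Of 20 genes tested of 21 listed, 17 were higher than in syngeneic skin, and 6 were called lower than in isotype skin. The median log2 fold change was 0.99 under anti-IL1RAP and 1.36 in isotype skin. The 17 included the heavy chains H2-K1 at 0.98 and H2-D1 at 0.73, the light chain B2m at 0.81 and the activator Nlrc5 at 0.81 on the log2 fold change scale, whereas Psme1 and Erap1 were back within 2-fold. Without anti-IL1RAP replicate 2, 15 genes were higher than in syngeneic skin, 2 were undecided and 2 were lower than in isotype skin, and with all 21 libraries 1 was higher.

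Psmb9, a subunit of the immunoproteasome that cuts peptides for class I, stood at 47.2, 53.4, 56.6 and 72.7 CPM in syngeneic, at 229, 182, 123 and 182 under anti-IL1RAP and at 226, 257, 243 and 203 in isotype skin. Anti-IL1RAP and syngeneic libraries did not overlap, and anti-IL1RAP replicate 1 lay within the isotype range. The log2 fold change was 1.64 ± 0.18 against syngeneic (SE, edgeR adjusted p = 0.00114) and -0.38 ± 0.18 against isotype skin, which did not pass (adjusted p = 0.175). Psmb8, a partner subunit that shares 14.7% of its exon bases with Gm20496, showed 1.53 ± 0.15 (SE, edgeR adjusted p = 0.000588). The peptide transporter genes Tap1 and Tap2 showed 1.27 ± 0.16 and 1.15 ± 0.13 (SE, edgeR adjusted p = 0.00214 and 0.00119), and both were also lower than in isotype skin (adjusted p = 0.0268 and 0.0197).

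Of the 13 MHC class II genes, 9 were higher than in syngeneic skin, with a median log2 fold change of 1.57 under anti-IL1RAP and 1.93 in isotype skin, and 1 was called lower than in isotype skin. H2-Eb1, a class II beta chain, stood at 223, 372, 379 and 214 CPM in syngeneic, at 1280, 971, 590 and 838 under anti-IL1RAP and at 1350, 1590, 908 and 696 in isotype skin. Anti-IL1RAP lay wholly above syngeneic and overlapped isotype skin. The log2 fold change was 1.63 ± 0.32 against syngeneic (SE, edgeR adjusted p = 0.025) and -0.30 ± 0.32 against isotype skin (adjusted p = 0.54). Ciita, the master regulator of class II transcription, showed 1.84 ± 0.32 (SE, edgeR adjusted p = 0.0152).

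The number of these class II calls moved with the libraries and the test. In 12 of the 13 genes every anti-IL1RAP library was above every syngeneic one, against 1815 of all 19438 genes tested. DESeq2 and the fit on the 8 libraries alone each called 12 higher. The count of 9 became 3, 4 and 0 without syngeneic replicates 1, 3 and 4, 1, 1 and 3 without anti-IL1RAP replicates 1, 2 and 4, and 1 with all 21 libraries, while the median without anti-IL1RAP replicate 2 was 1.53 and no member was then called lower than in isotype skin. H2-Eb1 lost its call without syngeneic replicate 1 or 4 or anti-IL1RAP replicate 1, 2 or 4, and Ciita lost it without syngeneic replicate 4 or anti-IL1RAP replicate 1.

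T cell genes stayed higher in part. Of 28 genes, 8 were called higher (Trac, Cd4, Cd8a, Cd8b1, Cd2, Cd6, Pdcd1 and Cd69), with a list median of 1.60 under anti-IL1RAP and 2.55 in isotype skin, and 14 of 23 disease genes were undecided. Together they took 0.00985% ± 0.00174 of the counts in syngeneic skin and 0.0228% ± 0.0104 under anti-IL1RAP (SD, n = 4 each, exact permutation p = 0.0286). Cd4, the co-receptor of helper T cells, stood at 1.02, 2.03, 1.64 and 1.3 CPM in syngeneic, at 16.1, 11.4, 7.37 and 9.22 under anti-IL1RAP and at 27.1, 23.2, 7.75 and 11 in isotype skin. The anti-IL1RAP libraries lay above all syngeneic ones and overlapped those of isotype skin, and the log2 fold change was 2.88 ± 0.41 against syngeneic (SE, edgeR adjusted p = 0.00465) and -0.65 ± 0.38 against isotype skin (adjusted p = 0.265). Cd4 kept its call under every alternative. The count of 8 became 2, 4, 1 and 1 without syngeneic replicates 1 to 4, 1 without anti-IL1RAP replicate 1, 1 without anti-IL1RAP replicate 2 and 15 without allogeneic isotype replicate 3. It was 17 with DESeq2, 15 on the 8 libraries alone and 4 with the mean log2 level of the skeletal muscle genes as a covariate.

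Of 15 cytotoxic genes tested of 17 listed, Gzmb and Klrk1 were called higher. Klrk1, the activating receptor NKG2D, stood at 0.706, 2.33, 1.2 and 0.847 CPM in syngeneic, at 16.1, 10.3, 6.54 and 6.8 under anti-IL1RAP and at 12.9, 15.2, 7.29 and 7.11 in isotype skin. Its values under both allogeneic groups overlapped, with log2 fold changes of 2.97 ± 0.43 against syngeneic (SE, edgeR adjusted p = 0.00525) and -0.10 ± 0.40 against isotype skin (adjusted p = 0.898). Gzmb, which encodes granzyme B, showed 3.34 ± 0.67 (SE, edgeR adjusted p = 0.0293) and lost its call without syngeneic replicate 1, 3 or 4 or anti-IL1RAP replicate 1 or 2. Nkg7 and the chemokine Ccl5 had log2 fold changes of 2.63 ± 0.69 and 2.79 ± 0.75 that missed the threshold (SE, edgeR adjusted p = 0.076 and 0.0821). DESeq2 called 7 of the 15.

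Of 27 macrophage and monocyte genes, C1qb, Fcgr1, Fcgr3, Aif1 and Chil3 were higher than in syngeneic skin, with a list median of 1.09 under anti-IL1RAP and 1.49 in isotype skin. Their summed share of counts was 0.436% ± 0.0539 in syngeneic and 0.624% ± 0.110 in anti-IL1RAP skin (SD, n = 4 each, exact permutation p = 0.0286). Aif1, a macrophage actin-binding protein gene, stood at 5.53, 8.94, 5.76 and 5.6 CPM in syngeneic, at 45.2, 22.6, 14.1 and 23.4 under anti-IL1RAP and at 39.9, 44.6, 21.5 and 15.6 in isotype skin. Anti-IL1RAP replicate 1 was the highest of all 12 libraries, and the log2 fold change against syngeneic skin was 2.03 ± 0.39 (SE, edgeR adjusted p = 0.0242). C1qb, a complement subunit made by macrophages, showed 1.76 ± 0.34 (SE, edgeR adjusted p = 0.025). Aif1 and C1qb lost their calls without syngeneic replicate 1, 3 or 4 or anti-IL1RAP replicate 1 or 2. The count of 5 became 1 without any one of these libraries, 3 without anti-IL1RAP replicate 4 and 8 and 9 without allogeneic isotype replicates 3 and 4. It was 14 with DESeq2 and 12 on the 8 libraries alone.

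Chil3, which encodes the chitinase-like protein Ym1, behaved unlike its list. It had no count in any syngeneic library and stood at 4.19, 2.65, 1.9 and 1.07 CPM under anti-IL1RAP and at 67.2, 65.6, 75.8 and 83.4 in isotype skin. Against the floor of 3 counts over the syngeneic group, it was at least 87.1-fold higher under anti-IL1RAP and at least 2470-fold higher in isotype skin, and it was lower under anti-IL1RAP than under isotype by a log2 fold change of -4.88 (edgeR adjusted p = 0.000182). In all, 10 genes called higher had no count in any syngeneic library. Ifi213, an interferon-inducible gene of the PYHIN family, was at 18.5, 6.26, 6.3 and 3.67 CPM under anti-IL1RAP and at 10.1, 10.1, 8.2 and 2.88 in isotype skin, which overlapped, and was at least 303-fold higher under anti-IL1RAP than in syngeneic skin. Gvin3, of the large inducible GTPases, was at 3.97, 3.13, 1.39 and 2.1 CPM under anti-IL1RAP and at least 94.3-fold higher than in syngeneic skin. For genes absent from every BALB/c marrow library, donor strain and disease cannot be told apart.

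Skint3, of the Skint family that supports epidermal gamma-delta T cells, also had no count in syngeneic skin. It stood at 1.15, 2.47, 1.76 and 2.95 CPM under anti-IL1RAP and at 0.453, 0.36, 0.367 and 0.0613 in isotype skin, so every anti-IL1RAP library was above every isotype library. It was at least 71.1-fold higher than in syngeneic skin, and higher than in isotype skin by a log2 fold change of 2.69 (edgeR adjusted p = 0.00785), the single gene among the 403 with that pattern. Within the gamma-delta T cell and Skint list of 11 tested genes, Trgc2 and Il2rg were the other genes called higher. Trgc2, a gamma chain constant region, stood at 0.196, 0.466, 0.576 and 0.13 CPM in syngeneic and at 5.75, 3.55, 3.24 and 1.88 under anti-IL1RAP without overlap, a log2 fold change of 3.42 ± 0.50 (SE, edgeR adjusted p = 0.0046). The delta chain gene Trdc was undecided at -1.67. Il2rg, the shared receptor chain of IL-2 family cytokines, has 30.5% of its exon bases in common with Gm20489 and showed 1.51 ± 0.33 (SE, edgeR adjusted p = 0.0407), a call lost without any one of the 4 syngeneic libraries or of anti-IL1RAP replicates 1, 2 and 4.

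Among 17 dendritic and Langerhans cell genes, Batf3, Ly75, Ccr7, Ccl22 and Ccl17 were higher than in syngeneic skin and Siglech was lower, and without anti-IL1RAP replicate 2 the counts were 3 higher and 0 lower by edgeR. Batf3, a transcription factor of conventional dendritic cells, stood at 2.16, 3.94, 2 and 2.15 CPM in syngeneic, at 10.5, 10, 7.97 and 11.7 under anti-IL1RAP and at 8.7, 10, 6.37 and 4.17 in isotype skin. Anti-IL1RAP lay above syngeneic skin in all 4 libraries, a log2 fold change of 1.97 ± 0.29 (SE, edgeR adjusted p = 0.00525) that held under every alternative. Ccr7, which guides migration to lymph nodes, showed 2.52 ± 0.43 (SE, edgeR adjusted p = 0.0135), a call lost without syngeneic replicate 4. Ccl17, a chemokine for CCR4-bearing T cells, stood at 0.0785, 0.17, 0.709 and 0.554 CPM in syngeneic and at 2.74, 8.36, 1.95 and 15.9 under anti-IL1RAP, a log2 fold change of 4.24 ± 0.78 (SE, edgeR adjusted p = 0.02) lost without syngeneic replicate 2 or 4 or anti-IL1RAP replicate 2. Siglech, a marker of plasmacytoid dendritic cells, stood at 4.75, 4.41, 4.97 and 7.2 CPM in syngeneic, at 0.185, 0.15, 1.16 and 0.671 under anti-IL1RAP and at 0.0453, 0.257, 0 and 0.245 in isotype skin. Its log2 fold change was -3.34 ± 0.62 (SE, edgeR adjusted p = 0.0226), lost without syngeneic replicate 3 or 4 or anti-IL1RAP replicate 1, 2 or 4. The number of genes called higher was 2 without syngeneic replicate 4 and 3 without anti-IL1RAP replicate 2.

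**Figure D4:**
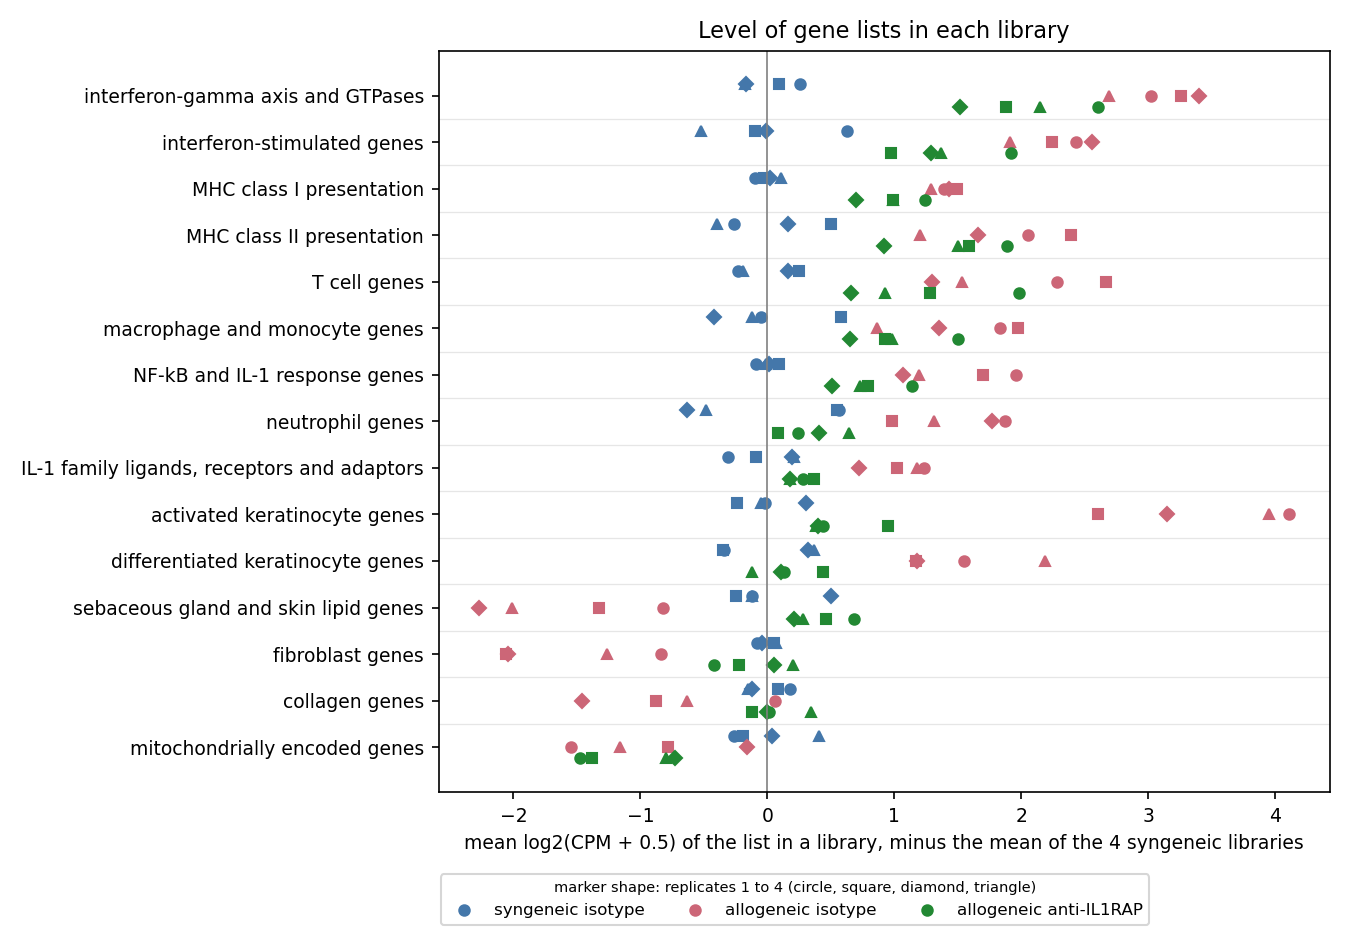
Mean log2(CPM + 0.5) of 15 gene lists in each library, minus the mean of the 4 syngeneic libraries, with colour for the group and marker shape for the replicate. Interferon-stimulated genes lie between 0.97 and 1.92 under anti-IL1RAP and the activated keratinocyte genes between 0.38 and 0.95, against 2.6 to 4.11 for the latter in isotype skin.

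Targets of NF-kB and IL-1 signalling split between both classes. Of 25 tested of 29 listed, 6 were higher than in syngeneic skin (Nfkbie, Tnf, Ccl2, Ccl7, Vcam1 and Saa1). Of the 20 disease genes 6 (30%) stayed changed, against 7.23% of all disease genes. A further 7 (35%) were back within 2-fold, against 61.8% of all disease genes, and 7 were undecided. The feedback regulators Nfkbia, Nfkbiz, Zc3h12a and Socs3 were among those back. Ccl7, a monocyte chemokine, stood at 4.36, 5.34, 4.35 and 5.08 CPM in syngeneic, at 51.7, 24.3, 14.6 and 28 under anti-IL1RAP and at 61.8, 55.4, 38.9 and 36.6 in isotype skin. Every anti-IL1RAP library exceeded every syngeneic one, at a log2 fold change of 2.63 ± 0.32 (SE, edgeR adjusted p = 0.00202), and the difference from isotype skin, -0.70 ± 0.31, did not pass (adjusted p = 0.141). The related Ccl2 showed 2.61 ± 0.37 (SE, edgeR adjusted p = 0.00469), and Vcam1, an endothelial adhesion molecule, showed 2.08 ± 0.40 (SE, adjusted p = 0.025). Vcam1 and Saa1, an acute-phase gene at under 1 CPM in both groups, lost their calls without syngeneic replicate 2, 3 or 4 or anti-IL1RAP replicate 1 or 2, and Saa1 also without anti-IL1RAP replicate 4. Without anti-IL1RAP replicate 2, 11 disease genes were undecided. The list's count of 6 was 2 without any one of these 5 libraries, 3 without anti-IL1RAP replicate 4, 12 without allogeneic isotype replicate 3 and 13 on the 8 libraries alone.

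In the IL-1 family the shares were near those of all genes. Of 25 tested of 26 listed genes, 1 (4%) was called (0 without anti-IL1RAP replicate 2), against 2.6% of all genes. Of the 21 disease genes 11 (52.4%) were back within 2-fold and 9 were undecided. The share back was 61.8% among all disease genes and 29% among those changed by at least 2-fold. Against isotype skin, 15 members were called lower. Il1rap, the target of the antibody, stood at 14.1, 17.5, 18.6 and 18.4 CPM in syngeneic, at 18, 20.9, 17.4 and 14.3 under anti-IL1RAP and at 22.3, 25.2, 20.5 and 27 in isotype skin. Syngeneic and anti-IL1RAP libraries overlapped, with a log2 fold change of 0.04 and a 95% confidence interval from -0.26 to 0.34, whereas isotype skin was higher than syngeneic skin by 0.47 ± 0.14 (SE, edgeR adjusted p = 0.0233). The antibody binds the protein, so the Il1rap transcript does not measure the blockade. Il1rn, the receptor antagonist, was back as well, at 0.06 with an interval from -0.32 to 0.45.

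Among the ligands, Il36a stood at 0.0785, 0.127, 0.887 and 1.3 CPM in syngeneic, at 0.742, 2.74, 1.99 and 0.94 under anti-IL1RAP and at 35.4, 10.9, 25.3 and 49.2 in isotype skin. It overlapped syngeneic skin under anti-IL1RAP and lay far below isotype skin, with log2 fold changes of 1.39 and an interval from -0.24 to 3.04 against syngeneic and -4.22 ± 0.65 against isotype skin (SE, edgeR adjusted p = 0.00243). Il36g and Il1a were likewise undecided, at 0.66 with an interval from -0.16 to 1.48 and at 0.25 with an interval from -0.53 to 1.02, and both were lower than in isotype skin (edgeR adjusted p = 0.00243 and 0.0147). Il1b stood at 1.01 with an interval from -0.47 to 2.5, and Il33 at -0.45 with an interval from -1.02 to 0.12. The single member that stayed changed was Myd88, the adaptor that IL-1 receptors share with Toll-like receptors. It was at 42.1, 37.6, 40.5 and 41.4 CPM in syngeneic, at 64.1, 57.4, 57.3 and 59.1 under anti-IL1RAP and at 100, 108, 75.1 and 89.1 in isotype skin, and the groups did not overlap. Its log2 fold change was 0.56 ± 0.11 (SE, edgeR adjusted p = 0.0215), lost without syngeneic replicate 2 or 3 or anti-IL1RAP replicate 1, 2 or 4, and it shares 11.3% of its exon bases with Acaa1a.

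Keratinocyte genes lay far closer to the syngeneic level under anti-IL1RAP than under isotype. Of 17 activated keratinocyte genes, 0 were called between anti-IL1RAP and syngeneic skin by edgeR, near the 2.6% of all genes. At an unadjusted p under 0.05, 6 (35.3%) were higher, against 11.5% of all genes, and DESeq2 called 3. In isotype skin 15 of the 17 were higher, with a median log2 fold change of 3.78 that was 0.65 under anti-IL1RAP, and 11 were called lower under anti-IL1RAP than under isotype. Only 3 of the 15 (20%) met the rule for back within 2-fold (Hbegf, Ereg and Ivl), and 12 were undecided. The share back was 61.8% among all disease genes and 29% among those changed by at least 2-fold. Without anti-IL1RAP replicate 2, 1 was back and 14 were undecided. Krt6b, a keratin of wounded and hyperproliferative epidermis, stood at 7.97, 10.4, 7.05 and 6.32 CPM in syngeneic, at 17.1, 21, 14.6 and 10.8 under anti-IL1RAP and at 2280, 1650, 2890 and 2140 in isotype skin. Each anti-IL1RAP library was above every syngeneic one, but the log2 fold change of 1.00 ± 0.24 missed the threshold (SE, edgeR adjusted p = 0.0543), while that against isotype skin was -7.14 ± 0.24 (SE, adjusted p = 8.91e-07). Krt16, its type I partner, stood at 16.4, 17.5, 25 and 21.8 CPM in syngeneic, at 33.8, 77.4, 37.5 and 49.1 under anti-IL1RAP and at 2940, 891, 3280 and 2160 in isotype skin. The values again did not overlap, and the log2 fold change was 1.29 with an interval from 0.48 to 2.11 (edgeR adjusted p = 0.0936).

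Of 28 tested genes of keratinocyte differentiation, 0 were called by edgeR, with 2 higher at an unadjusted p under 0.05 and 1 by DESeq2. Back within 2-fold were 10 of 18 disease genes (55.6%), against 61.8% of all disease genes and 29% of those changed by at least 2-fold. In this list 17 members were called lower than in isotype skin. Flg, which encodes the barrier protein filaggrin and is among the 8 back genes with the largest disease change, stood at 30.6, 32.2, 63.9 and 65.4 CPM in syngeneic, at 42.2, 71.4, 50.6 and 32.7 under anti-IL1RAP and at 1070, 755, 814 and 2330 in isotype skin. Its anti-IL1RAP values lay within or close to the syngeneic range, at a log2 fold change of 0.04 with an interval from -0.84 to 0.92, against 4.69 ± 0.40 in isotype skin (SE, edgeR adjusted p = 4.76e-05). Rbp2, a retinol-binding protein gene, stood at 3.26, 3.14, 8.42 and 9.15 CPM in syngeneic, at 4.52, 8.18, 5.38 and 6.4 under anti-IL1RAP and at 82.2, 71.3, 73 and 99.8 in isotype skin. The late cornified envelope gene Lce1g and the kallikrein gene Klk9 were back at -0.05 with intervals from -0.94 to 0.84 and from -0.91 to 0.81, and the ion transport regulator Fxyd4 at -0.01. Of 11 basal keratinocyte genes 0 were called by edgeR, none at an unadjusted p under 0.05 and none by DESeq2, and 5 of 6 disease genes were back.

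The other genes of the 8 had been lower in disease. Vipr1, a receptor for vasoactive intestinal peptide, stood at 22.5, 25.1, 24.9 and 22.8 CPM in syngeneic, at 18.4, 21.8, 27.5 and 18.4 under anti-IL1RAP and at 2.58, 2.06, 0.687 and 1.41 in isotype skin. Anti-IL1RAP values lay around the syngeneic ones, with a log2 fold change of -0.15 and an interval from -0.73 to 0.44, against -3.82 ± 0.29 in isotype skin (SE, edgeR adjusted p = 1.65e-05). P2rx2, an ATP-gated channel gene, and Opcml, a neural adhesion molecule gene, were back at 0.03 with an interval from -0.67 to 0.73 and at -0.18 with an interval from -0.80 to 0.44. Of 10 neutrophil genes tested of 16, 0 were called by edgeR, 1 was higher at an unadjusted p under 0.05 and DESeq2 called 1. Of the list's 6 disease genes, 1 was back within 2-fold and 5 were undecided. The 1 that was back was Mmp9, a gelatinase of neutrophils and other cells, at -0.33 with an interval from -0.85 to 0.19. Mmp9 had been at 2.52 ± 0.23 in isotype skin (SE, edgeR adjusted p = 4.4e-05).

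**Figure D5:**
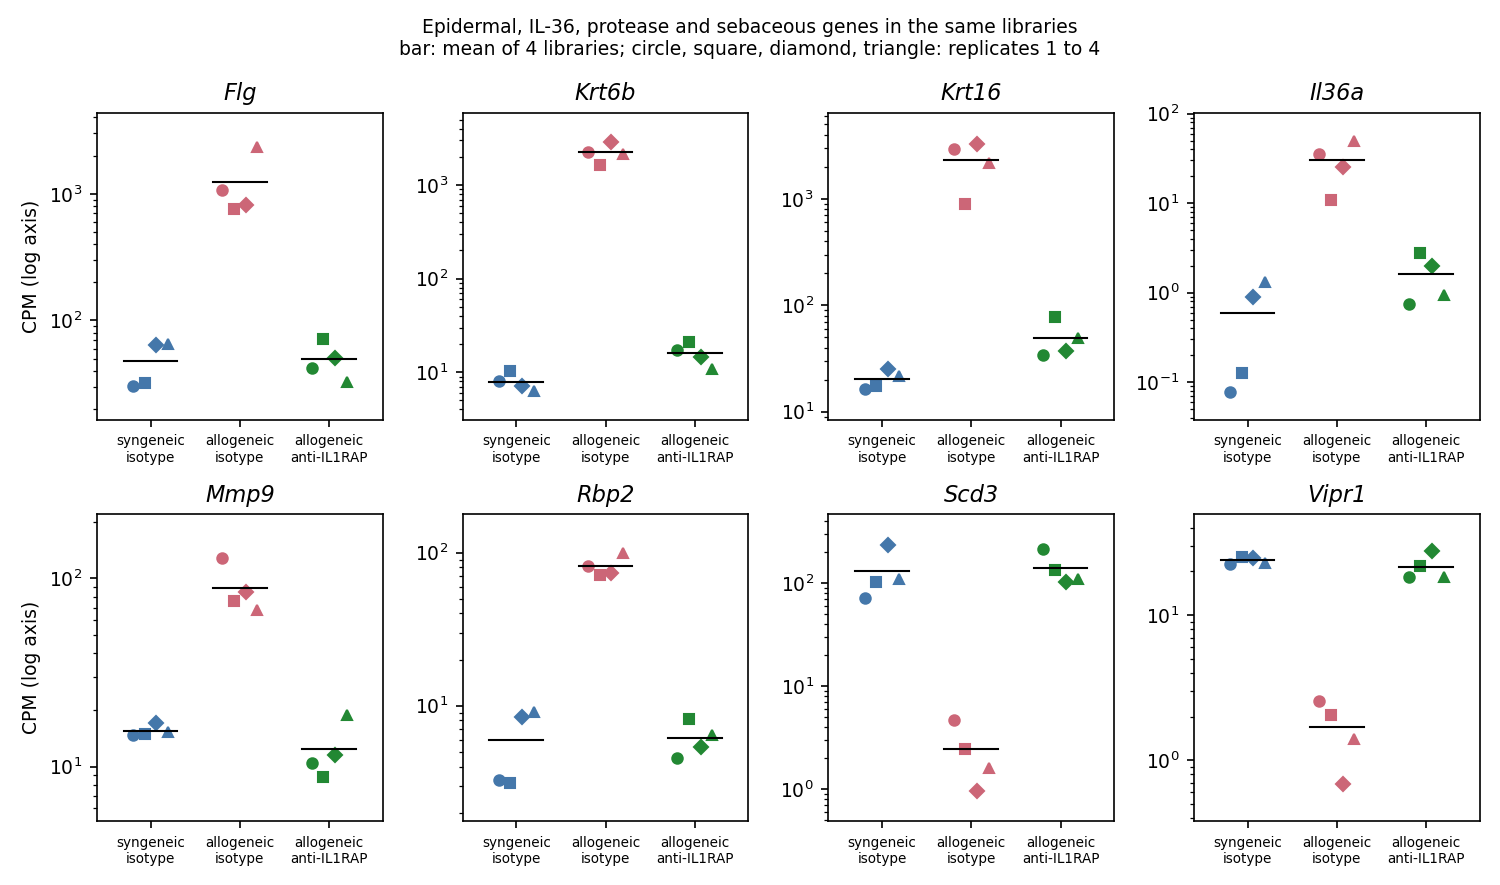
CPM of 8 genes, on a log axis, with 1 point per library in the syngeneic, allogeneic isotype and anti-IL1RAP groups and a line at each group mean. Flg, Rbp2, Mmp9 and Vipr1 met the rule for back within 2-fold, while Krt6b, Krt16, Il36a and Scd3 were not called and had intervals that reached beyond it.

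Of 20 sebaceous gland and skin lipid genes, 8 were lower and 1 was higher in the disease comparison. Between anti-IL1RAP and syngeneic skin 0 of the 20 were called by edgeR, none at an unadjusted p under 0.05 and none by DESeq2. Of the 9 disease genes, 2 (22.2%) were back within 2-fold and 7 were undecided. The share back was 61.8% among all disease genes and 29% among those changed by at least 2-fold. The list median was 0.25 under anti-IL1RAP and -1.40 in isotype skin, and 8 members were called higher than in isotype skin. Scd3, a sebocyte desaturase, stood at 71.7, 102, 235 and 109 CPM in syngeneic, at 212, 132, 102 and 110 under anti-IL1RAP and at 4.71, 2.42, 0.962 and 1.59 in isotype skin. Its log2 fold change was 0.10 with an interval from -0.87 to 1.07, just beyond the rule, and it was 5.83 ± 0.48 above isotype skin (SE, edgeR adjusted p = 0.000144).

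Of 20 fibroblast genes, Ly6a alone was called. Ly6a, which encodes Sca-1 and is also induced by interferon, stood at 214, 197, 213 and 208 CPM in syngeneic, at 635, 379, 354 and 450 under anti-IL1RAP and at 751, 772, 771 and 592 in isotype skin. Its log2 fold change was 1.13 ± 0.18 (SE, edgeR adjusted p = 0.00748). Of the 14 fibroblast genes changed in disease, 13 had been lower, and 12 members were higher under anti-IL1RAP than under isotype. Among these 14, 5 (35.7%) were back within 2-fold and 8 were undecided. The share back was 61.8% among all disease genes and 29% among those changed by at least 2-fold. Of 29 collagen genes 0 were called by edgeR, with 2 higher (6.9%) and 3 lower (10.3%) at an unadjusted p under 0.05, near the shares of all genes, and 1 lower by DESeq2. Of their 10 disease genes, 3 (30%) were back and 7 were undecided. Col1a1, the main fibrillar collagen, stood at 1140, 989, 1450 and 834 CPM in syngeneic, at 762, 834, 2140 and 2300 under anti-IL1RAP and at 1200, 226, 199 and 644 in isotype skin. Anti-IL1RAP replicates 3 and 4 were above and replicates 1 and 2 at or below the syngeneic libraries, and the interval of its log2 fold change ran from -0.77 to 1.67. Of 23 wound matrix genes and 25 genes of the TGF-beta pathway 0 were called by edgeR, with 3 and 4 higher and 1 and 3 lower at an unadjusted p under 0.05, and DESeq2 called 2 higher in the first list and 3 higher and 1 lower in the second. In the TGF-beta list 10 of 14 disease genes (71.4%) were back within 2-fold, near the 61.8% of all disease genes. Over this list's 25 genes, 5 were called higher and 2 lower than in isotype skin, and being back does not require such a move. The share back was 7 of 8 (87.5%) in the Schwann cell list and 2 of 9 (22.2%) in the wound matrix list, where 7 were undecided.

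In the fit on 12 libraries 83 genes were lower than in syngeneic skin, and 70 of them had been lower in disease, while the fit on the 8 libraries alone called 1074 lower and 1058 higher. Crip3, a LIM domain protein gene, stood at 12.3, 9.49, 14.3 and 12.4 CPM in syngeneic, at 2.89, 2.32, 3.85 and 3.36 under anti-IL1RAP and at 0.997, 0.514, 0.504 and 0.491 in isotype skin. The groups did not overlap, and the log2 fold change was -1.97 ± 0.23 against syngeneic (SE, edgeR adjusted p = 0.00163) and 2.28 ± 0.27 against isotype skin (SE, adjusted p = 0.00037). Crip3 was the one gene of the 8 with the largest falls that kept its call without each library in turn. Fcer2a, the low-affinity IgE receptor of B cells, stood at 1.37, 2.33, 4.17 and 1.69 CPM in syngeneic and at 0.0371, 0.241, 0.185 and 0.224 under anti-IL1RAP, a log2 fold change of -3.75 ± 0.80 (SE, edgeR adjusted p = 0.0322) lost without syngeneic replicate 2, 3 or 4 or any one of the 4 anti-IL1RAP libraries. Pdlim7, a LIM protein gene of muscle and other cells, stood at 167, 186, 148 and 195 CPM in syngeneic and at 52.5, 39.6, 82.7 and 96.6 under anti-IL1RAP, a log2 fold change of -1.36 ± 0.31 (SE, edgeR adjusted p = 0.0432) lost without any one of the 4 syngeneic libraries, allogeneic isotype replicate 2 or 4 or anti-IL1RAP replicate 1, 2 or 3. Tek, the endothelial angiopoietin receptor, fell by 0.64 on the log2 scale (SE 0.13, edgeR adjusted p = 0.0233), a call lost without syngeneic replicate 1 or 4 or anti-IL1RAP replicate 1 or 2.

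Muscle and mitochondrial genes lay below their syngeneic values, mostly without passing the test. Of 22 skeletal muscle genes, 0 were called by edgeR, none passed an unadjusted p under 0.05 and DESeq2 called none, although the list median was -1.66. In 17 of the 22 the anti-IL1RAP libraries lay wholly below the syngeneic ones, against 1996 of all 19438 genes tested. The fit on the 8 libraries alone called 2 of them lower. Of the 13 mitochondrially encoded genes, all were lower at an unadjusted p under 0.05, against 8.85% of all genes, and 12 were lower without overlap. Their median log2 fold change was -1.15 under anti-IL1RAP and -0.84 in isotype skin, and DESeq2 called 10. The one called by edgeR was mt-Co3, a subunit of cytochrome oxidase, at 11.8, 15.3, 17.5 and 18.9 CPM in syngeneic and 5.78, 6.53, 9.97 and 7.96 under anti-IL1RAP, a log2 fold change of -1.07 ± 0.25 (SE, edgeR adjusted p = 0.0496). That call was lost without any one of the 4 syngeneic libraries, allogeneic isotype replicate 2 or 4 or anti-IL1RAP replicate 1, 2 or 4, and nuclear copies of mitochondrial sequence can take part of such reads. With the mean log2 level of the skeletal muscle genes in each library as a covariate, 377 genes were called, 332 of them among the 505. The part of the muscle share in the other falls was not tested.

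A total of 16 genes were called against both the syngeneic and the isotype group in the same direction and were not disease genes, 9 higher and 7 lower. Aadacl4fm2, of a family of arylacetamide deacetylase-like genes, stood at 0.0392, 0.297, 0.222 and 0.0326 CPM in syngeneic, at 0.136, 0, 0 and 0 in isotype skin and at 2.74, 1.11, 1.48 and 1.34 under anti-IL1RAP. It was above both other groups in every library, with a log2 fold change of 3.51 ± 0.73 against syngeneic skin (SE, edgeR adjusted p = 0.0252), and its neighbour in name Aadacl4fm5 showed 4.07 ± 0.92 (SE, adjusted p = 0.0362). Ston2, an endocytic adaptor gene, stood at 28.8, 33.7, 31.6 and 42.5 CPM in syngeneic, at 41.2, 40.1, 42.7 and 47 in isotype skin and at 14, 18.6, 20.4 and 23.7 under anti-IL1RAP. It was below both groups in every library, at -0.83 ± 0.16 against syngeneic (SE, edgeR adjusted p = 0.0215) and -1.16 ± 0.16 against isotype skin (SE, adjusted p = 0.000934). The count of 16 became 10, 3 and 0 without syngeneic replicates 2, 3 and 4, 33 and 35 without allogeneic isotype replicates 1 and 3, 3, 1 and 6 without anti-IL1RAP replicates 1, 2 and 4, and 89 with DESeq2. Aadacl4fm2 and Aadacl4fm5 lost their calls without syngeneic replicate 1, 3 or 4 or anti-IL1RAP replicate 1, 2 or 4, Aadacl4fm5 also without syngeneic replicate 2, and Ston2 without syngeneic replicate 4 or anti-IL1RAP replicate 2.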

How the data were processed

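Per the submitters' processing notes, the authors used FastQC, Trimmomatic, STAR and featureCounts with the GRCm39 build. No version and no annotation release is named in the sources used here. Per the labels' protocols, libraries were made from 1 µg of skin RNA with a kit that keeps no strand, so reads of overlapping genes on either strand cannot be told apart. The deposited values are the authors' raw counts per gene (64050 genes). GRCm39 is the genome of a strain with another MHC haplotype than these mice, which may lower the counted level of H2 genes.

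From these counts, edgeR 4.0.16 (quasi-likelihood test, TMM scaling, filterByExpr with a minimum count of 10, R 4.3.3) was fitted on the 12 libraries of 1 counting run, without a replicate block, and p-values were adjusted by Benjamini-Hochberg over all tested genes. The other 9 libraries, counted in another run, entered an alternative only. Values are CPM on TMM-scaled library sizes, per gene and not per length, so levels are compared within a gene. Intervals are 95%, standard errors come from the fitted coefficients, and a fold against a group at 0 uses a floor of 3 counts over the group, which covers counting error only. The procedure was tested on simulated data with the same spread in every group, so the wider spread among the allogeneic isotype libraries was not covered. Alternatives were other scalings (RLE and upper quartile), filters, DESeq2 1.42.0, other sets of libraries, replicate blocks, a muscle covariate and leaving out each library. Figures were drawn with matplotlib 3.10.9.

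The members and the 38 gene lists were chosen with earlier results of these data known. Genes named were the 8 called genes with the largest changes in each direction (at least 1 CPM, no overlap between the groups), the 8 genes back within 2-fold with the largest disease change, 4 in each direction among those changed against both controls, up to 4 of lowest p in each list, and a set of IL-1, keratinocyte and matrix genes. Predicted genes were left out of the first 3 of these. Further list members were added to show the range of a list. Promoters matched 13135 of the 19438 tested genes by symbol, and exon overlaps were taken from GENCODE M21 on GRCm38 for gene names only. The library numbers were not used to pair the samples in the fit on 12 libraries. Results for some genes are not reported here, although counts over gene lists include them.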

Additional observations from a re-analysis of the deposited data

Results flagged for a closer look

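Among 252 groups of 4 values, for the genes named above and the composition measures, 15 (5.95%) held a library whose gap to the nearest of the others divided by the group's range exceeded the 95% critical value of Dixon's test, which chance passes in about 1 of 20 groups. In syngeneic skin these were replicate 1 for Stat2, at 51.7 CPM, and replicate 2 for Aif1, at 8.94 CPM, and for Batf3, at 3.94 CPM, each the highest of the group. In allogeneic isotype skin, Pdcd1, an inhibitory T cell receptor, was highest in replicate 2 at 19.3 CPM. Replicate 1 of that group was highest for Fcer2a at 1.27 CPM, for Crip3 at 0.997 CPM and for Aadacl4fm2 at 0.136 CPM. Ly75, an endocytic receptor of dendritic cells, was lowest in replicate 3 at 6.55 CPM, and Ly6a was lowest in replicate 4 at 592 CPM.

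Under anti-IL1RAP, replicate 1 was highest for the T cell receptor gene Trac, at 13.3 CPM, and for the Fc receptor gene Fcgr1, at 42.4 CPM. Il33 was lowest in replicate 3 at 31.8 CPM, and Il1rn was highest in replicate 2 at 59.3 CPM. Hair follicle genes took the largest share of counts in replicate 3, at 0.0769%. Y-linked genes stood at 16.2 CPM in replicate 2 and at 0 in the other 3 anti-IL1RAP libraries.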

How the results depend on the processing

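The counts of calls moved with the test and with the libraries in the fit, and with only the groups compared the higher genes were 49.6% of those called. The number of genes called, higher and lower against syngeneic skin was 1677, 1157 and 520 with DESeq2, 2132, 1058 and 1074 with only the groups compared, 145, 135 and 10 with all 21 libraries, and 139, 136 and 3 at an adjusted p under 0.01. The lower genes numbered 43 with no filter and 24 with at least 2-fold added. A replicate block by the title number gave 731 genes called and 149 lower. The same-numbered libraries did not deviate together (correlations from -0.21 to -0.11), but so few correlations cannot settle whether the numbers pair libraries. By the description number the correlations were -0.2, 0.32 and 0.09 for the numbers 1, 3 and 4, and a replicate block by it gave 659 genes called and 1642 genes between anti-IL1RAP and isotype skin. That comparison gave 2111 genes with all 21 libraries, 1589 at an adjusted p under 0.01 and 1569 with at least 2-fold, and the disease comparison gave 3645 and 3046 under these last thresholds. The disease genes that stayed changed numbered 1362 with DESeq2, 1031 with only the groups compared, 139 with all 21 libraries and 138 at an adjusted p under 0.01. Those back within 2-fold numbered 2175 with all 21 libraries, 2233 at an adjusted p under 0.01, 900 with at least 2-fold, 2401 with a 1.5-fold margin and 882 among disease genes of at least 2-fold, a choice added after seeing the data. Those undecided numbered 956 with only the groups compared and 1274 at an adjusted p under 0.01. The genes changed against both controls numbered 7 with no filter, 89 with DESeq2, 54 with only the groups compared, 2 with all 21 libraries, 0 by edgeR at an adjusted p under 0.01 and 5 with at least 2-fold. Leaving out each library in turn gave 164 to 1311 genes called, 161 to 828 higher, 3 to 483 lower, 5477 to 7869 in the disease comparison, 2310 to 3886 between anti-IL1RAP and isotype skin, 164 to 1166 that stayed changed, 3181 to 4597 back, 1682 to 2359 undecided and 0 to 35 changed against both controls. The cause was not tested, apart from the smaller number of libraries or genes that an alternative itself leaves. Of 4371 values for 191 single genes under the alternatives, 3953 kept their side of the threshold, 287 lost a call and 131 gained one, and none of the called values changed sign.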

Other observations

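Several groups of genes not described above had no member called by edgeR between anti-IL1RAP and syngeneic skin, near the 2.6% of all genes called. Of 26 cell cycle genes, 0 were called by edgeR, with 6 higher at an unadjusted p under 0.05 and 1 called by DESeq2. Their median log2 fold change was 0.41 under anti-IL1RAP and 0.97 in isotype skin. Mcm6, a subunit of the replicative helicase, stood at 20.7, 25.9, 18 and 13.4 CPM in syngeneic skin and at 48.6, 38.9, 23.5 and 34.7 under anti-IL1RAP, a log2 fold change of 0.90 ± 0.24 that missed the threshold (SE, edgeR adjusted p = 0.0684). Of 21 immediate early and heat shock genes, 0 were called by edgeR, 8 were higher at an unadjusted p under 0.05 and DESeq2 called 4. Of the 9 disease genes among them, 6 (66.7%) were back within 2-fold, near the 61.8% of all disease genes. Of 20 cholesterol and fatty acid synthesis genes, 0 were called by edgeR, 3 were higher at an unadjusted p under 0.05 and DESeq2 called 2. Insig1, a regulator of sterol synthesis, stood at 53.6, 34.1, 44 and 46.5 CPM in syngeneic, at 55.3, 106, 132 and 106 under anti-IL1RAP and at 29.8, 43.9, 17.8 and 18.4 in isotype skin. It was above every isotype library under anti-IL1RAP, by a log2 fold change of 1.86 ± 0.31 (SE, edgeR adjusted p = 0.00269), while its difference of 1.16 ± 0.31 from syngeneic skin did not pass (adjusted p = 0.0742).

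Of 15 B cell and plasma cell genes tested, 0 were called by edgeR, 4 were higher at an unadjusted p under 0.05 and DESeq2 called 4. Igkc, the kappa light chain constant region, stood at 0.51, 0.805, 0.399 and 0.163 CPM in syngeneic, at 78.3, 9.47, 1.99 and 5.1 under anti-IL1RAP and at 277, 442, 0.55 and 45.2 in isotype skin. Every anti-IL1RAP library was above every syngeneic one, the libraries within each allogeneic group differed widely, and the log2 fold change of 5.68 ± 1.71 did not pass (SE, edgeR adjusted p = 0.109). Of 7 melanocyte genes 0 were called by edgeR, 3 were higher at an unadjusted p under 0.05 and DESeq2 called 1. Tyrp1, a melanosome protein gene, stood at 1.73, 2.92, 3.55 and 2.48 CPM in syngeneic and at 8.79, 6.29, 8.3 and 5.1 under anti-IL1RAP without overlap, a log2 fold change of 1.42 ± 0.35 (SE, edgeR adjusted p = 0.0607).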
